A study of Drosophila melanogaster with 16 samples.

Results

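Polycomb (PC) binding in the eye disc was set against PC binding in the wing disc, using every region that the authors called in each tissue. After regions off the main chromosome arms or with a width of 0 were left out, 2027 eye regions and 3716 wing regions remained, 5743 of the 22397 regions in the 7 region lists of the series. A PC region counted as shared when it overlapped a region of the other disc by at least 1 bp, and as eye-alone or wing-alone otherwise, so that "alone" means only that no region was called at that place in the other list.

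Imaginal discs are the larval epithelia from which the adult eye with its head parts, or the wing with its part of the thorax, is formed. The samples labelled EyeDisc_PC and WingDisc_PC were chromatin immunoprecipitations from Drosophila melanogaster discs of third-instar larvae (L3) with a PC antibody. No genotype, strain or sex is given for them in the sources used here, and each was 1 sample that stands for replicates 1 and 2 together. Chromatin was fixed for 15 min in 1.8% formaldehyde and 12 to 14 immunoprecipitations were pooled for a PC library. The protocol in the labels speaks of embryo extracts while the source field names discs; tissue was taken from the source field, and region lists hold no expression with which to check it. With no values per replicate, no spread between replicates and no test between discs could be given. The 95% intervals of shares are exact binomial ones (Clopper-Pearson). They reflect counting error alone, and neighbouring regions are not independent.

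PC is a subunit of the Polycomb repressive complex PRC1, and its chromodomain binds histone H3 carrying the K27me3 mark that PRC2 deposits. Polyhomeotic (PH) is another PRC1 subunit, whose SAM domain can form chains that link complexes. In Drosophila both proteins are concentrated at Polycomb response elements, short regulatory sequences inside broad K27me3 domains that keep developmental genes silent. K27ac on the same residue is a mark of active promoters and enhancers and excludes methylation there. The regions below are given by arm and position as in the files, with starts counted from 1. No source used here states the build of the lists. Region ends stopped short of the last gene of the Release 6 annotation on all 6 arms, so that annotation was not laid over them and no region was assigned to a gene.

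The wing disc list was longer and its regions were wider. It held 1.83 times as many PC regions as the eye list and covered 8.34 Mb against 3.01 Mb, a ratio of 2.77 in bases. Median width was 1684 bp in the wing (quartiles 1146 and 2531) and 1193 bp in the eye (quartiles 852 and 1740.5). Regions over 5 kb numbered 240 in the wing and 35 in the eye, and regions over 10 kb numbered 48 and 4. At the narrow end, 37 wing and 18 eye regions were under 100 bp. Among 1151 pairs in which 1 eye region met 1 wing region and no other, the wing region was the wider in 1068 (92.8%), with a median ratio of widths of 1.50. Their centres lay a median of 202 bp apart, but pairs were chosen by overlap, which by itself keeps centres near each other. The 2 regions of a pair thus mostly differed in extent, and their closeness in position is partly set by that choice. PH regions were also more numerous in the wing (5062 against 3370, a ratio of 1.50, and of 1.94 in bases). K27me3 domains were more numerous in the wing too, 583 against 349, but covered nearly equal lengths, 10.1 Mb and 9.23 Mb (ratio 1.09).

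**Figure D1:**
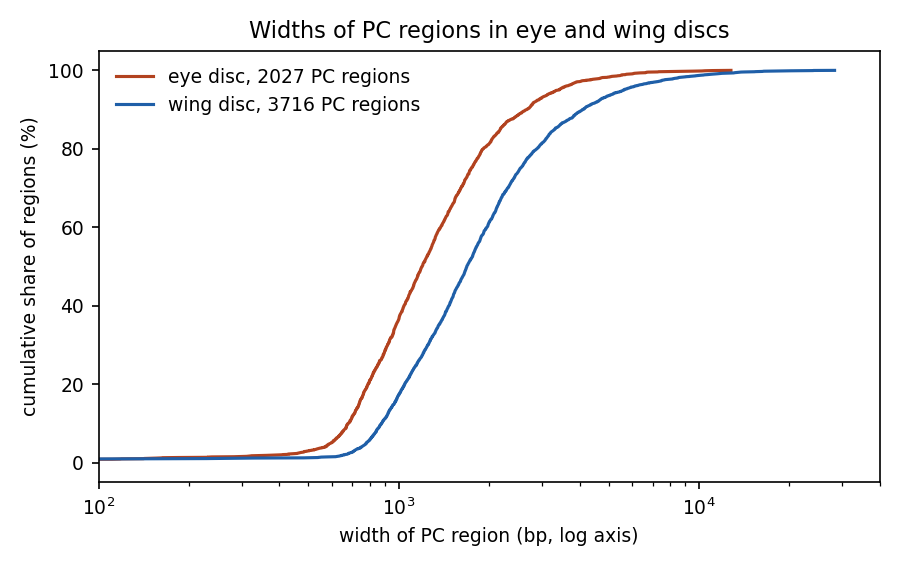
Cumulative share of PC regions (vertical axis, percent) by width (horizontal axis, bp, log scale) in eye and wing discs, with widths under 100 bp off the axis. The wing curve lies to the right of the eye curve through the middle of the range, with medians of 1684 bp and 1193 bp.

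Most eye PC regions had a counterpart in the wing, and most wing regions had none in the eye, a contrast that narrows when the lists are of equal length. Of the eye regions 1598 of 2027 were shared (78.8%, interval 77.0 to 80.6), which left 429 eye-alone regions. Of the wing regions 1388 of 3716 were shared (37.4%, interval 35.8 to 38.9), which left 2328 wing-alone regions. As background, 9.33% of the 1 kb tiles along the arms overlapped a wing PC region and 3.96% an eye PC region. With the wing list cut to its 2027 widest regions, 58.5% of eye and 47.7% of wing regions were shared. Counted in bases, 81.1% of the eye PC sequence lay inside wing regions and 29.3% of the wing PC sequence inside eye regions. An eye region was wholly contained in wing PC in 1294 cases (63.8%), and the reverse held for 29 wing regions (0.78%). A single wing region spanned several eye regions in 197 cases, up to 6, while 28 eye regions spanned more than 1 wing region. PH showed the same imbalance, with 88.5% of eye PH regions overlapping wing PH and 53.7% of wing PH regions overlapping eye PH. So did K27me3, with 77.9% of eye domains overlapping a wing domain and 45.8% of wing domains overlapping an eye domain.

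Wider regions were shared more often in both discs. In the eye 70.7% of the narrowest quartile group (up to 852 bp) and 88.6% of the widest quartile group (from 1741 bp) overlapped wing PC. In the wing the shares were 22.6% of the narrowest quartile group (up to 1146 bp) and 58.1% of the widest (from 2532 bp). A wide region has more room to overlap, and this was not separated from binding strength, since the lists hold no score. Median widths were 1256 bp for shared and 1018 bp for eye-alone regions of the eye, and 2106 bp for shared and 1496 bp for wing-alone regions of the wing.

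Regions seen in 1 disc alone were nearer to PC of the other disc than tiles of the arms were, with a long tail of distant ones. Of eye-alone regions 87 (20.3%) lay within 1 kb of a wing region and 257 (59.9%) within 10 kb, with a median gap of 6.25 kb. Of the 1 kb tiles that did not overlap wing PC, 4.41% and 29.8% lay within these distances. Of wing-alone regions 323 (13.9%) lay within 1 kb and 1250 (53.7%) within 10 kb of an eye region, with a median gap of 8.38 kb, where 2.74% and 20.3% of the tiles free of eye PC did so. A total of 399 wing-alone regions and 28 eye-alone regions were more than 50 kb from any PC region of the other disc.

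The arms differed in how many PC regions they held and in the balance between discs. The X had the highest density in both, 22.3 regions per Mb in the eye and 38.4 in the wing. The wing list exceeded the eye list most on 3R, 975 against 477 (ratio 2.04), and on 3L, 654 against 338 (1.93). On X and 2L the ratio was 1.73, and on 2R it was 1.78. The small chromosome 4 was the exception among the 6 arms, with 19 eye and 9 wing regions. All 9 wing regions of chromosome 4 were shared, 10 of its eye regions were eye-alone, and those 10 lay outside eye K27me3 domains.

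In both discs PC regions fell inside and outside K27me3 domains in similar proportion. Eye PC overlapped an eye K27me3 domain in 774 of 2027 regions (38.2%, interval 36.1 to 40.3), where 7.9% of 1 kb tiles did so. Wing PC overlapped a wing K27me3 domain in 1549 of 3716 regions (41.7%, interval 40.1 to 43.3), where 8.78% of tiles did so. PH was called at most eye PC regions, 1659 of 2027 (81.8%, interval 80.1 to 83.5), and at a smaller share of wing PC regions, 2564 of 3716 (69.0%, interval 67.5 to 70.5). Eye and wing PH overlapped 6.37% and 11.4% of tiles. Eye PC overlapped eye K27ac in 59.8% of regions, where 25.5% of tiles did so. K27ac was measured in the eye alone, so the values for wing regions below refer to the mark in the other disc.

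The 4 classes of PC region differed in which of these marks accompanied them. Shared regions carried PH in most cases, in 85.4% seen from the eye list and 90.0% seen from the wing list. They were split between K27me3 with PH (35.2% in the eye, 34.1% in the wing) and PH outside K27me3 (50.1% and 55.9%). Eye-alone regions had less K27me3 (23.3%, interval 19.4 to 27.6, against 42.2%, interval 39.7 to 44.6, for shared eye regions). More of them had neither PH nor K27me3, 117 of 429 (27.3%), against 123 of 1598 shared eye regions (7.7%). Eye-alone regions were also narrower, with medians of 1018 bp against 1256 bp. K27me3 was at 17.1% of the narrowest and 67.1% of the widest quartile group of the eye list. Width was not separated from these 2 contrasts in the eye. Wing-alone regions lay in K27me3 in 42.8% (interval 40.8 to 44.9) and shared wing regions in 39.8% (interval 37.2 to 42.4). This order depended on the setting: among regions at or above the median width it was 41.1% against 56.5%, and with neighbours joined 26.0% against 32.6%. In the width setting both PC lists were cut at their own median. Wing-alone there meant no overlap with an eye region that was kept, and narrower eye regions did not count. Wing-alone regions carried PH in 56.5% (interval 54.4 to 58.5).

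**Figure D2:**
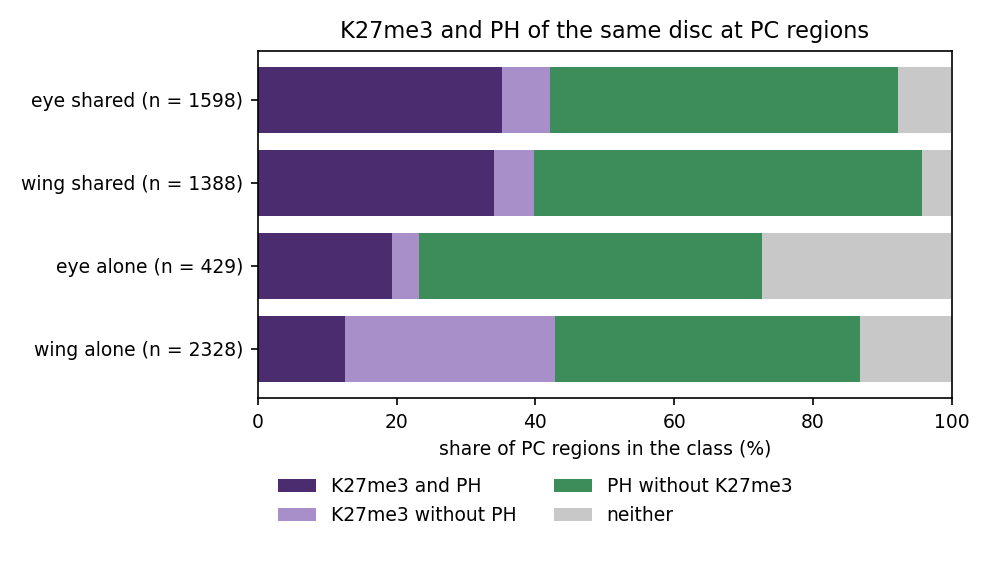
Share of PC regions (horizontal axis, percent) that overlapped K27me3, PH, both or neither of the same disc, for shared and alone regions of each disc. K27me3 without PH made up 30.3% of wing-alone regions and between 3.96% and 6.95% of the other classes.

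Inside K27me3 domains of the wing, shared and wing-alone regions differed in PH. There 473 of 552 shared PC regions carried wing PH (85.7%, interval 82.5 to 88.5), and 291 of 997 wing-alone regions did (29.2%, interval 26.4 to 32.1). Wing-alone regions in K27me3 without PH numbered 706, and 694 of the 997 (69.6%) had no PH region in either disc. Eye K27ac overlapped 102 of the 997 (10.2%), and 653 (65.5%) had neither wing PH nor eye K27ac. It overlapped 22.5% of the 552 shared wing regions and 9% of eye-alone regions inside eye K27me3. Read the other way, 785 wing PC regions lay in K27me3 without PH, and 79 of them (10.1%, interval 8.05 to 12.4) were shared with the eye. Wing PC regions with both K27me3 and PH were shared in 473 of 764 cases (61.9%, interval 58.4 to 65.4). In the eye the corresponding group was small: 128 eye PC regions lay in K27me3 without PH, of which 111 (86.7%) were shared. Eye-alone and shared eye regions inside eye K27me3 were alike in eye PH, 83 of 100 (83%) and 563 of 674 (83.5%). The 706 wing-alone regions in K27me3 without PH had a median width of 1384 bp, near the 1496 bp of all wing-alone regions. Shared wing regions with K27me3 and PH had a median of 3741 bp. The share of wing-alone regions in K27me3 with PH moved to 45.5% when features within 1 kb counted as overlapping and to 47.2% among regions at or above the median width of their list. In the same settings shared regions stood at 89.4% and 91.2%. For the width setting both PC lists were cut, so wing-alone regions there include some that met only a narrower eye region.

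Width and PH each went with sharing in the wing. Among wing PC regions without PH, 7.29% of the narrowest quartile group and 24.7% of the widest quartile group were shared, against 34.0% and 65.0% of regions with PH. In the eye, regions without PH were shared in 57.4% of the narrowest quartile group and 89.1% of the widest, where regions with PH stood at 75.7% and 88.5%. The intervals of regions with and without PH did not overlap in any quartile group of the wing, and they overlapped in the widest quartile group of the eye.

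**Figure D3:**
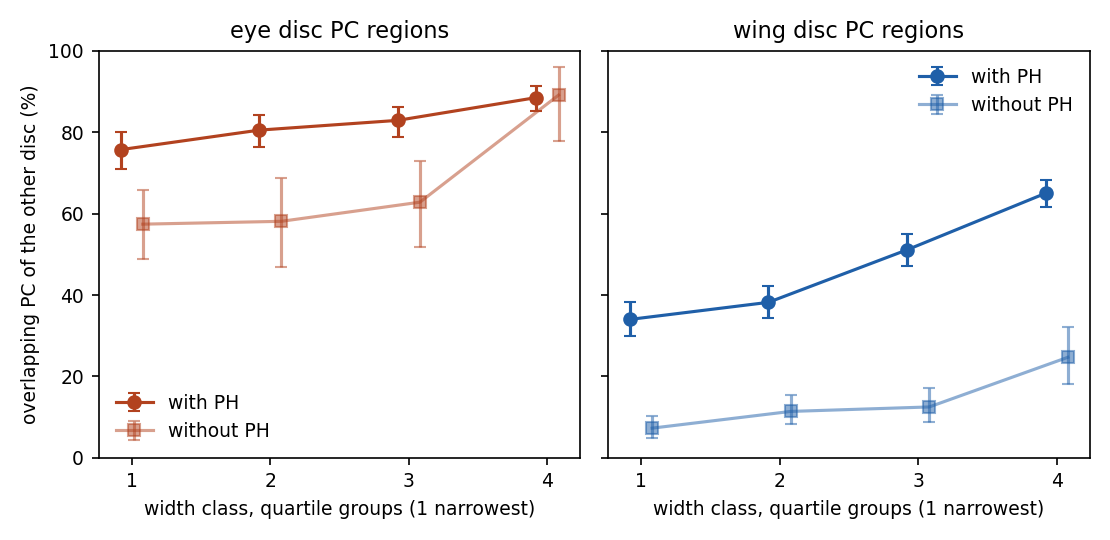
Share of PC regions that overlapped PC of the other disc (vertical axis, percent), by width class of each list (horizontal axis, quartile groups from narrowest to widest) and by PH in the same disc. Points are shares and bars exact 95% intervals; in the wing the regions without PH run from 7.29% to 24.7% and those with PH from 34.0% to 65.0%.

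Outside K27me3 the wing-alone regions looked different. Of 1331 wing-alone regions there, 1024 carried wing PH (76.9%, interval 74.6 to 79.2) and 986 overlapped eye K27ac (74.1%). Both features were present at 744 (55.9%). The PH at these places was called in both discs in 509 regions and in the wing alone in 515, and counting those without wing PH, 533 (40.0%) overlapped eye PH although eye PC was not called. Shared wing regions outside K27me3 carried wing PH in 92.8% and eye K27ac in 90.2%. Of the 329 eye-alone regions outside K27me3, 212 carried eye PH (64.4%, interval 59.0 to 69.6) and 207 wing PH (62.9%), with eye K27ac at 80.9%. A further 74 (22.5%) had no PH in either disc.

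Wing-alone regions within K27me3 mostly lay in domains that the eye disc had too, as did wing PC within K27me3 as a whole. Of the 997, 898 (90.1%) overlapped an eye K27me3 domain, and 952 (95.5%, interval 94.0 to 96.7) lay in a domain, eye and wing domains merged, that also held eye PC. These high shares are not particular to wing-alone regions. Merged domains called in both discs held 1518 wing PC regions of any class, and merged domains of the wing alone held 70. Of the 167 domains of at least 10 kb called in both discs, 155 held PC of both. The 997 regions had a median gap to the nearest eye PC region of 3.20 kb, against 21.5 kb for wing-alone regions outside K27me3. No background inside domains was computed for these gaps. Over the whole arms the median gap between neighbouring regions was 6.08 kb in the wing and 14.8 kb in the eye, and 29.0% and 17.6% of gaps were under 1 kb. When regions of a list under 1 kb apart were joined, 2639 wing and 1671 eye regions remained. The share of wing-alone regions in wing K27me3 then fell from 42.8% to 26.0%, so the counts of regions in domains depend on where neighbouring calls are cut apart.

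K27me3 domains held more wing PC than eye PC, at about the ratio of the whole lists. A total of 257 merged domains were called in both discs, and wing PC covered 42.7% of their sequence against 15.6% for eye PC, with 1518 wing and 782 eye regions (ratio 1.94, against 1.83 over the whole lists, and 2.77 there in bases). Of the 167 domains of at least 10 kb, 155 held PC of both discs, 6 held wing PC alone, none held eye PC alone and 6 held neither. Wing PC covered more bases in 154 of them and eye PC in 7. The median cover was 37.0% (quartiles 22.3 and 63.5) in the wing and 12.5% (quartiles 7.32 and 21.4) in the eye. Domains with more than 50% of their bases in PC regions numbered 60 in the wing and 6 in the eye. The number of PC regions per domain was related between discs (Spearman rho 0.82 across the 167 domains, a description, since wide domains hold more regions in either disc).

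**Figure D4:**
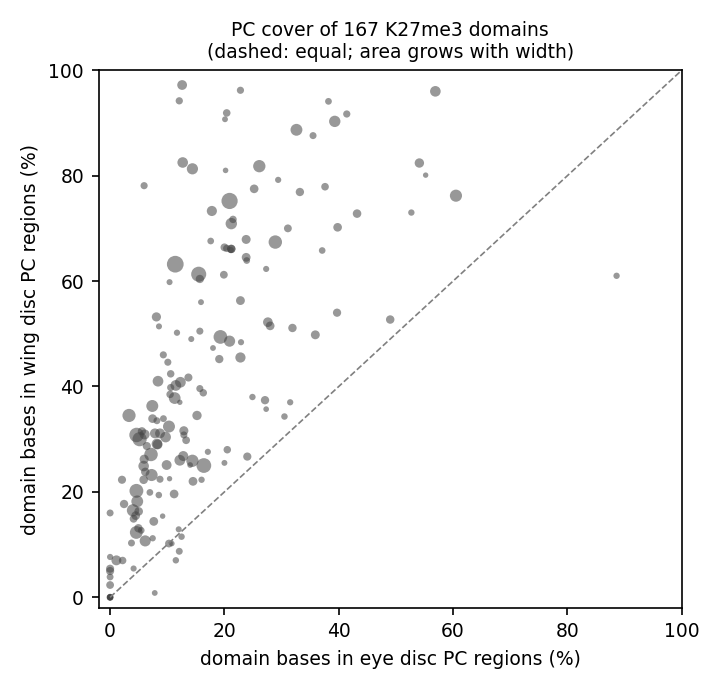
Percent of the bases of each K27me3 domain covered by PC regions in the eye disc (horizontal axis) and the wing disc (vertical axis), for 167 domains of at least 10 kb called in both discs. Each point is a domain, its area grows with domain width and the dashed line marks equal cover; 154 domains lie above the line and 7 below.

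The wing K27me3 domains with the most wing PC regions are given next. They were picked by that number, so a high wing count in them is partly set by the choice. The K27me3 domain with the most wing regions, 3R:12588001-12813951, is 226 kb wide and held 89 wing and 26 eye PC regions. Wing PC covered 75.2% of it and eye PC 20.9%, while PH regions were alike in number, 31 in the wing and 32 in the eye. Of its 67 wing-alone regions, 61 had no PH in either disc. The neighbouring domain 3R:12483051-12581951 had the same form, with 39 wing and 11 eye regions, cover of 81.8% and 14.5%, and 29 of 31 wing-alone regions without PH. In 3R:2650101-2890951 the wing list held 64 regions and the eye list 19, covering 63.4% and 11.4%. There PH also differed, with 41 wing and 17 eye regions, and 33 of 49 wing-alone regions were without PH. Cover in 3L:12532501-12725451 was 61.3% in the wing and 15.5% in the eye, with 41 and 18 regions, and 18 eye K27ac regions also lay there. In the X domain X:4269501-4426951 it was 49.5% and 19.4%, with 38 and 22 regions, and 12 eye K27ac regions.

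The domain with the most eye PC regions ran the other way in number but not in bases. At 2R:8838251-8955951, 118 kb wide, the eye list held 29 regions and the wing list 12, yet wing PC covered 75.9% of the domain and eye PC 61.5%. Median widths there were 6979 bp in the wing and 1884 bp in the eye, 1 of the 12 wing regions was wing-alone, and no eye region was eye-alone. PH was dense in both discs, with 29 eye and 25 wing regions. Of the 5 eye domains with the most eye PC, 3R:9666351-9789951 also had nearly equal numbers, 19 in the eye and 21 in the wing, at cover of 26.2% and 81.7%.

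**Figure D5:**
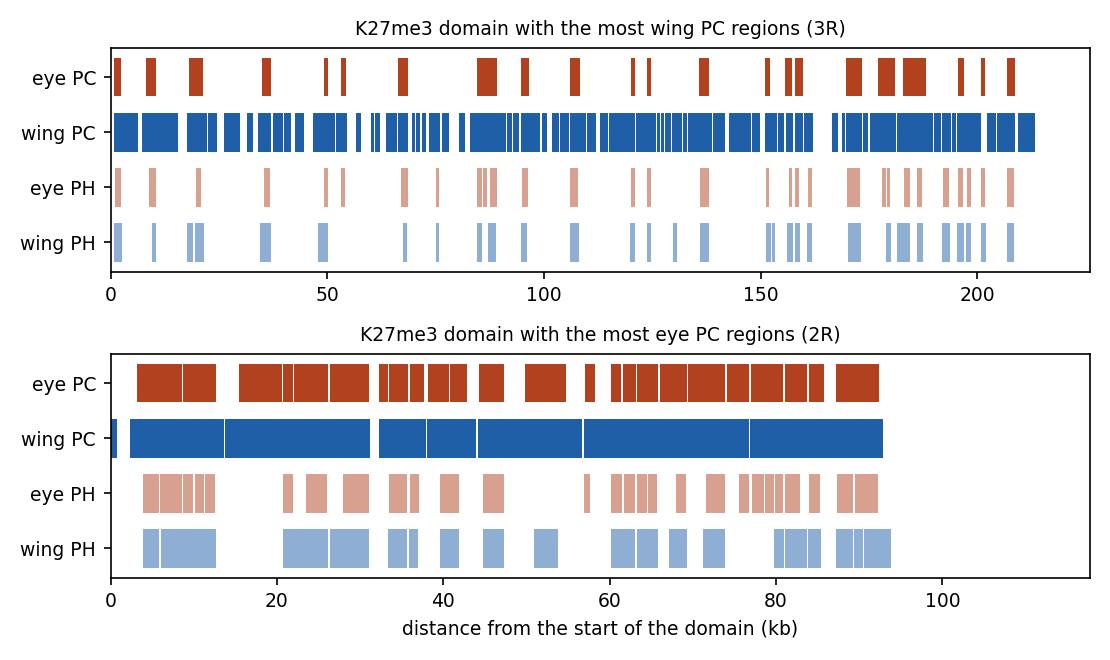
PC and PH regions of eye and wing discs (rows) along 2 K27me3 domains, by distance from the start of the domain (horizontal axis, kb). In the 3R domain 89 wing PC regions fill much of the space between 26 eye PC regions while PH regions number 31 and 32; in the 2R domain 29 eye PC regions stand against 12 wider wing regions.

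The domains of at least 10 kb in which the eye disc covered more bases were few. One was 3R:18954001-18974951, where eye PC covered 88.6% with 3 regions and wing PC 61.0% with 4. Its eye region 3R:18955221-18965445 was 10.2 kb wide, of which wing PC covered 3.16 kb. In X:10711501-10726451 eye PC covered 7.81% and wing PC 0.823%. In the other 5 such domains the cover differed by less than 5 percentage points. These 7 domains were listed after their values were seen.

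The widest eye regions were not all covered in the wing. The widest eye region, 2L:3532096-3544870 (12.8 kb), lay wholly in wing PC, as did 3R:679759-690223 (10.5 kb) and 2L:3550933-3560481 (9.55 kb). Of the other 2 of the 5 widest, 2L:497526-508597 (11.1 kb) met no wing PC and 3R:18955221-18965445 (10.2 kb) was covered over 3.16 kb. The widest wing region, 3R:3974070-4002355, measured 28.3 kb and took in 6 eye regions, which bound 20.8 kb of it, the most bases bound in both discs at any segment. The next in shared bases were 2R:8852006-8869413 with 15.3 kb in 4 eye regions and 1 wing region, and 2R:19513631-19532406 with 13.2 kb. Of the other widest wing regions, 3R:25334683-25358701 was 24.0 kb wide with 2.79 kb of eye PC, and held 5 wing and 1 eye PH regions. The remaining 3 held more eye PC, 8.61 kb of 24 kb in 3R:17252040-17276039, 12.8 kb of 23.9 kb in 2L:3577989-3601906 and 9.78 kb of 20.2 kb in 2R:20931979-20952189. All the regions named here were inside K27me3 domains of both discs, the third of the shared segments by 95.6% in the eye.

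Among regions of 1 disc alone, the widest in the eye was 2L:497526-508597, 11.1 kb wide, 4.79 kb from the nearest wing PC and with K27me3 in both discs. PH was called inside it in both discs, 2 regions in the eye and 3 in the wing, so the wing list lacked PC there and not PH. The next widest eye-alone regions were 3R:19118559-19125227 (6.67 kb) and 3R:19023868-19028473 (4.61 kb), which lay 0.208 kb and 1.19 kb from wing PC. The widest wing-alone region, 3L:658869-677702, measured 18.8 kb and had no K27me3 in either disc, with 4 wing and 1 eye PH regions, 3 eye K27ac regions and the nearest eye PC 36.7 kb away. A second outside K27me3 was 3R:6410223-6421861 (11.6 kb, 2 wing and 1 eye PH regions). The wing-alone regions 2R:20705810-20722188 (16.4 kb), 2L:529269-539177 (9.91 kb) and 3R:2775237-2784715 (9.48 kb) were inside K27me3 of both discs, 2.40 kb, 5.16 kb and 5.39 kb from eye PC.

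Along the arms in fixed 100 kb windows, PC of both discs fell in 696 of 1205 windows, wing PC alone in 226, eye PC alone in 27 and neither in 256. The wing list had more regions in 658 windows and the eye list in 115. An excess of 5 or more wing regions was seen in 101 windows, and of 5 or more eye regions in 2. The 3 largest wing excesses were consecutive on 3R, from 12500001 to 12800000, with 39, 41 and 42 wing against 13, 10 and 14 eye regions, in the K27me3 domains described above. The fourth, 3R:2800001-2900000, had 29 wing and 4 eye regions, and the fifth, X:18100001-18200000, had 29 and 8. Both windows with an eye excess of 5 or more were those around the 2R domain above, 2R:8800001-8900000 (19 eye and 11 wing) and 2R:8900001-9000000 (12 and 5). The next, 2L:18800001-18900000, differed from these in that 8 of its 12 eye regions were eye-alone, against 8 wing regions, with 12 eye and 14 wing PH regions. The remaining named windows were 3R:3900001-4000000, with 11 eye and 7 wing regions, and 2R:6400001-6500000, with 6 and 3 and no K27me3 in either disc.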

How the data were processed

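Chromatin immunoprecipitates from eye and wing discs were sequenced by the authors, with CASAVA 1.8.2 and SICER named in the submitters' processing notes. No source used here states the threshold, the build or the depth. The deposited region lists hold no signal, only chromosome, start and end, with no score. Regions off the 6 main arms or without width were dropped, 2 of the eye and 3 of the wing PC list. Positions were printed with starts counted from 1. Overlaps needed 1 bp, domains of both discs were merged where they overlapped, and windows were assigned by region centre. Background is the share of 120224 tiles of 1 kb, with each arm ending at the largest region end in any list. The RNA-seq tables were not used here. The 5 highest by each rule of width, shared bases, excess per window or PC regions per domain were named. Members and rules were chosen with earlier results of these data known. Overlaps were computed in Python 3.11.15 with pandas 2.3.3 and numpy 2.4.6, intervals with scipy 1.17.1, and plots with matplotlib 3.10.9. Overlap and distance functions were tested on simulated data.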

Additional observations from a re-analysis of the deposited data

How the results depend on the processing

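A total of 11 shares were recomputed in 6 alternatives each, 3 of them (PH at wing PC inside K27me3, and K27me3 at shared wing PC) added after seeing the data. Of 66 values 47 left the main interval and 19 stayed inside it, 2 of which could not move because trimming the wing list leaves eye PC untouched. Overlap of at least 50% of a region gave 27.2% of wing PC shared, K27me3 at 34.7% of shared wing PC, PH at 77.1% of eye and 62.4% of wing PC, and PH at 24.9% of wing-alone and 65.2% of shared wing PC inside K27me3. Counting features within 1 kb gave 83.1% of eye and 46.0% of wing PC shared, K27me3 at 43.7% of wing, 40.6% of wing-alone and 47.4% of shared wing PC, PH at 87.0% of eye, 77.7% of wing and 65.5% of wing-alone PC, and PH inside K27me3 at 45.5% of wing-alone and 89.4% of shared wing PC. With 1 kb around the centre, 35.4% of wing PC was shared, K27me3 was at 37.0% of shared wing PC and PH inside K27me3 stood at 79.7% of shared wing PC. Both PC lists were also cut to regions at or above their own median width, so sharing needed a region kept in the other list. This gave 74.9% of eye and 35.7% of wing PC shared. Against the whole other list, the third and widest quartile groups were shared in 79.4% and 88.6% in the eye. In the wing they were shared in 40.1% and 58.1%. The cut lists gave K27me3 at 54.4% of eye, 46.6% of wing and 56.5% of shared wing PC, and PH at 86.1% of eye, 77.3% of wing and 68.8% of wing-alone PC. PH inside K27me3 was at 47.2% of wing-alone and 91.2% of shared wing PC. With the widest wing regions, as many as in the eye list, 58.5% of eye and 47.7% of wing PC was shared, K27me3 was at 45.5% of wing and 47.4% of shared wing PC, PH at 76.4% of wing and 62.3% of wing-alone PC, and PH inside K27me3 at 38.9% of wing-alone and 89.5% of shared wing PC. Joining regions under 1 kb apart gave 43.1% of wing PC shared, K27me3 at 33.5% of eye, 28.9% of wing, 26.0% of wing-alone and 32.6% of shared wing PC, PH at 84.2% of eye, 79.6% of wing and 69.1% of wing-alone PC, and PH inside K27me3 at 43.5% of wing-alone and 94.6% of shared wing PC. In each of the 6 alternatives a larger share of eye than of wing PC was shared, and PH inside wing K27me3 was at a smaller share of wing-alone than of shared PC. K27me3 was at a larger share of wing-alone than of shared wing PC with 50% overlap and around the centre, as in the main setting, and at a smaller share in the other 4. The cause of the shifts was not tested. No paired analysis was possible because each disc is 1 sample that stands for both replicates. Leaving out a replicate, a stricter score and an interval for depth could likewise not be had, since the lists hold neither replicates nor scores.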

Other observations

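K27me3 domains without PC were mostly short. Of the 406 wing domains under 10 kb, 52 (12.8%, exact 95% interval 9.72 to 16.5) held wing PC, against 169 of the 177 wing domains of at least 10 kb (95.5%). In the eye, 18 of 180 domains under 10 kb (10%) and 151 of 169 of at least 10 kb (89.3%) held eye PC. As background, 9.33% of 1 kb tiles overlapped wing PC and 3.96% eye PC. A short domain has less room to hold a PC region, and these shares do not separate that. In bases, wing PC covered 10.5% of the short and 44.0% of the long wing domains. Eye PC covered 7.15% and 16.6% of the eye ones. K27me3 domains of the wing alone numbered 316 after merging, with a median width of 1.15 kb, and 277 of them held no PC of either disc. Within domains of at least 10 kb, PC centres had a median distance from the nearer edge of 26.3% of the domain width for shared wing regions and 24.5% for wing-alone regions. No background of evenly spread centres was computed, so no preference for edge or middle is read from these values.

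Wing-alone PC outside K27me3 had similar densities on the large arms, 10.6 regions per Mb on 2L, 3L and 3R, 11.4 on 2R and 12.9 on X. Shared wing PC outside K27me3 ran from 5.70 per Mb on 2L to 6.36 on 3L among the autosomal large arms, and stood at 10.6 on X. Wing-alone PC inside K27me3 made up 341 of 636 wing-alone regions on 3R (53.6%) and between 34.2% and 42.8% on X, 2L, 2R and 3L.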
